A study of Homo sapiens with 2 samples.

Results

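Interleukin-1 and epithelial chemokine genes were examined in HCT116 cells given miR-204-5p. The set has 10 members, chosen by name with earlier results of these data known. The chemokines are CXCL8 (named IL8 on the array), CXCL1, CXCL2, CXCL3, CCL2 and CCL20. With them are the cytokines IL1A and IL1B and the inhibitors NFKBIA and TNFAIP3. All 10 had a probe on the arrays, 12 probes in all out of 34127 that were not controls. Of the 14894 named genes in the authors' deposited table of detected probes, 9 were members. IL1A was outside that table and was read from the scanner files.

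HCT116 is an established human colorectal carcinoma line of epithelial origin. The cells were kept in McCoy's 5a medium with fetal bovine serum and transfected with Lipofectamine 2000. One culture received a synthetic mimic of miR-204-5p and the other a negative control RNA, and RNA was taken at 48 h from both. Each condition had 1 single-colour (Cy3) Agilent array, so there were 2 arrays, no replicates, no test and no replicate error. Every difference therefore describes this pair of arrays.

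Interleukin-1 alpha and beta are alarm cytokines that signal through a shared receptor to the transcription factor NF-kB. NF-kB in turn switches on chemokine genes, IL1B itself and the inhibitors NFKBIA and TNFAIP3, which shut the signal down again. In the gut, epithelial chemokines of this group call in neutrophils, monocytes and dendritic cells, and colorectal tumours often make them in excess.

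The transfected microRNA and some member promoters are shown first, because the former sets the experiment apart from its control and the latter hold the NF-kB-type motif that several members share. MicroRNAs pair with messenger RNAs mainly through the seed, bases 2 to 8, which is in capitals in the mature sequence (RefSeq, GRCh38.p14, chr9:70810031-70810052, minus strand).
hsa-miR-204-5p: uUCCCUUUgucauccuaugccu
Untranslated regions were not used here, so seed matches in the members' transcripts were not counted.

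Promoter sequences (250 bases before to 50 after the start) came from RefSeq on GRCh38.p14, and 9 of the 10 members, all but CCL2, had an entry. Each was searched on both strands for GGANNNTCC, the core of many NF-kB sites, for TGANTCA, the AP-1 core, for TATAAA, and for the longer NF-kB consensus, which overlaps GGANNNTCC at many of its matches. GGANNNTCC was in the promoters of 7 members, against 9.32% of 35116 promoters searched the same way. The NF-kB consensus was in 6 members (11.3% of all promoters), TGANTCA in 2 (IL1A and CXCL8; 7.71%) and TATAAA in 4 (IL1A, CXCL8, CCL20 and NFKBIA; 11.5%). The 150 bases printed here, 5′ to 3′ on the gene's strand, have the matches to GGANNNTCC, TGANTCA and TATAAA on either strand in capitals.
CXCL8 promoter, chr4:73740419-73740568, plus strand: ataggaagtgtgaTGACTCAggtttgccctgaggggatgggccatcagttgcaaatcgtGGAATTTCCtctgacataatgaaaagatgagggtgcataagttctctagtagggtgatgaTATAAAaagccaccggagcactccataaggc
CXCL1 promoter, chr4:73869243-73869392, plus strand: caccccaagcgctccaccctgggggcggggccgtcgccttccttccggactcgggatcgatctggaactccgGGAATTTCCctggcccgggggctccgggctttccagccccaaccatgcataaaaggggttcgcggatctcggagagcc
CXCL2 promoter, chr4:74099196-74099345, minus strand: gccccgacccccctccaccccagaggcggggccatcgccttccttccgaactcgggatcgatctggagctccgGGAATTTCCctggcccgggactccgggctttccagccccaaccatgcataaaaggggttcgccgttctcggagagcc
CXCL3 promoter, chr4:74038690-74038839, minus strand: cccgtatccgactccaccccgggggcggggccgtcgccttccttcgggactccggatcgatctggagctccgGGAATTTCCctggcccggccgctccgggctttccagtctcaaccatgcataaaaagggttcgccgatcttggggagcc
NFKBIA promoter, chr14:35404750-35404899, minus strand: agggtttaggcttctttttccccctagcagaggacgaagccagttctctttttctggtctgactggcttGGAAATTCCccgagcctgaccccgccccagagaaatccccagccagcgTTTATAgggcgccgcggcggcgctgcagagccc
The motif GGANNNTCC began 91 bases before the start in CXCL8, 78 in CXCL1, 77 in CXCL2, 78 in CXCL3, 81 in NFKBIA and 67 in TNFAIP3, and 207 in CCL20. NFKBIA had a further match 242 bases before its start. TATAAA began 31 bases before the start in CXCL8, 29 in CCL20 and 33 in NFKBIA. In IL1A it began 239 bases before the start, in 1 of its 2 promoter entries. The CXCL1, CXCL2 and CXCL3 stretches were near copies of one another, with 88.7% identity between CXCL1 and CXCL2, 88.1% between CXCL1 and CXCL3, and 86.1% between CXCL2 and CXCL3. CXCL8 shared 43.6% to 47.3% with these 3. A motif match describes the letters only.

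Intensities are given after scaling by the 75th percentile of the array, 1364 with the mimic and 894 with the control, and differences are log2, mimic minus control. The median difference over all table genes was -0.05 on this scale. A gene was counted as higher or lower at 2-fold. Negative-control spots had a median of 4.52 with the mimic and of 4.45 with the control. Lowest in the table were intensities of 21.2 and 21.0. For 1366 of the table's 20291 probes (6.73%), the raw mimic signal equalled the product of the control signal and the deposited fold to a relative tolerance of 1e-06. Such probes are called recomputed here. IL1B, CXCL8, CCL2 and TNFAIP3 were among them. CXCL8 and TNFAIP3 have 1 spot each, which holds the recomputed value. IL1B and CCL2 have 10 differing spots each, whose median on the mimic array is the table's recomputed value, while the mean of their log2 spots is used here. On the mimic array all 10 spots of IL1A and of NFKBIA were 1.2 times a value of 7 significant digits. So was the 1 spot of each CXCL1, CXCL2, CXCL3 and CCL20 probe. Of the spots of IL1B, CXCL8, CCL2 and TNFAIP3, 0 had this pattern. The recomputed members thus also differ from the others in their single spots. The share of all mimic spots with the pattern was not counted, so it is not shown to be particular to the members. How this 1.2 pattern arose, and what it does to the scaled values, was not tested. Of the 1017 genes at least 2-fold lower by the deposited values, 1016 (99.9%) had a recomputed probe, so a large deposited decrease and a recomputed value went together across the whole table.

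Markers of the labelled cell type were checked on both arrays before the members were compared. Of 17 epithelial and colorectal markers, 11 were in the table, and 7 of these were higher on the mimic array and 0 lower. Their summed intensity over all 17 was 262067 with the mimic and 45191 with the control. EPCAM, an adhesion protein of epithelia, read 65569 against 608, and CDH1, the epithelial cadherin, 11324 against 36.6. VIL1, LGR5, ASCL2 and CEACAM5 were below the lowest table intensity on both arrays, and CDX2, the intestinal transcription factor, was below it on the control array alone. Of 12 mesenchymal markers, 8 detected in the table gave 7 lower on the mimic array, 4 of them from recomputed probes, and 1 (COL1A1) higher. The mesenchymal sum was 2785 with the mimic and 166630 with the control, where most came from VIM, the intermediate filament of mesenchymal cells. Marker sums take the mean over all probes of a gene, including probes outside the table. A gene can therefore add less than its table probe reads. ZEB1 read 784 with the mimic and 18685 with the control by its table probe, which is recomputed. FN1 and COL3A1 were below the lowest table intensity on both arrays, and THY1 and FAP on the mimic array. Leukocyte markers (9 of 12 in the table, 2 lower and 1 higher, S100A8 and S100A9 below its lowest intensity on both arrays) summed to 7451 and 6491. Endothelial markers (4 of 6 in the table, CLDN5 below its lowest intensity on both arrays and PECAM1 on the mimic array) summed to 636 and 927. On the control array CDX2 was thus not above that level, CDH1 was close to it and VIM was high. Other epithelial markers were bright on both arrays. KRT18 read 43600 with the mimic and 22142 with the control, CLDN4 27650 and 13611, KRT19 79450 and 6112, and KRT8 11770 and 1430. Every difference that follows was measured across this gap in markers between the arrays. Its part in the members' values was not tested. Treatment and array cannot be told apart with 1 array each.

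Both interleukin-1 genes were far lower on the mimic array. IL1A encodes interleukin-1 alpha, a cytokine that dying epithelial cells release as an alarm. Its probe, printed at 10 spots, read 4.46 with the mimic and 472 with the control. The mimic spots lay between 4.20 and 5.68 and the control spots between 437 and 521, with no overlap. The mimic value was at the level of the negative controls, whose highest spot read 13.1, so the size of the difference has only a bound. Set against the lowest table intensity, IL1A was at least 22.2-fold lower. In RNA from a whole culture, fewer cells with a transcript and less of it per cell cannot be told apart. IL1B encodes interleukin-1 beta, the secreted form that caspase-1 matures. Its probe (chr2:113587429-113587488, minus strand, in the file's coordinates, whose build is not given) read 24.5 against 9122, with mimic spots of 16.6 to 46.3 and control spots of 8452 to 9763. The log2 difference of -8.54, or 372-fold lower, placed it at rank 3 from the lowest of 14894 genes. The mimic value was close to the lowest table intensity of 21.2, and some mimic spots were below it. The fold and the rank therefore depend on how dim signals are treated. The IL1B difference was -7.34 with a constant of 32 added and -7.19 after normexp. Its mimic value in the authors' deposited table is recomputed, and the difference there was -7.79.

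**Figure D1:**
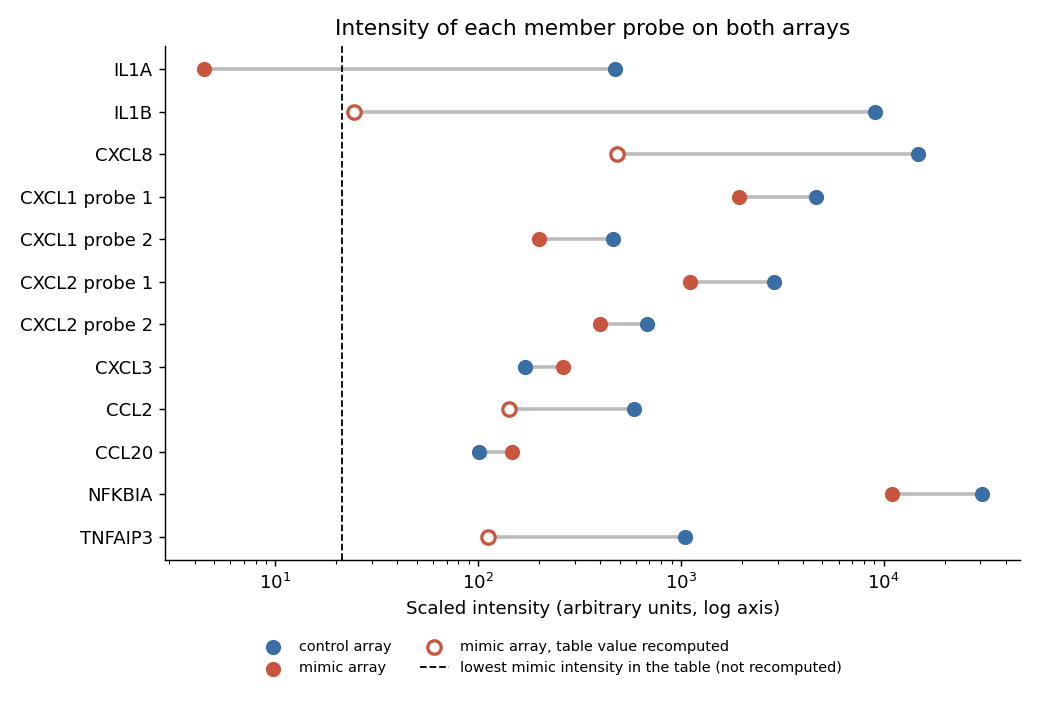
Scaled intensity (arbitrary units, log axis) of the 12 member probes, with a blue point for the control array and a red one for the mimic array, open where the table's mimic value is recomputed. The mimic point lies left of the control point for all but CXCL3 and CCL20, and IL1A lies left of the dashed line at 21.2, the lowest mimic intensity in the table that was not recomputed.

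Among the member chemokines, the one furthest below its control value was CXCL8. It encodes interleukin-8, the chief neutrophil attractant of human epithelia, which has no mouse counterpart. Its probe (chr4:74609265-74609324, plus strand) read 485 with the mimic and 14765 with the control. The difference was -4.93, or 30.4-fold lower, at rank 83 from the lowest. It rests on 1 spot and a recomputed mimic value, and the authors' deposited table gives -4.32.

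CXCL1, CXCL2 and CXCL3 are near-identical neighbours of CXCL8 that attract neutrophils through the receptor CXCR2. They did not differ in 1 direction on these arrays. CXCL1 had a pair of probes whose starts lie 1204 bases apart (chr4:74736850-74736909 and chr4:74735646-74735705, plus strand). One read 1947 on the mimic array against 4621 on the control array, the other 200.0 against 462. Both were lower by nearly the same amount, -1.25 and -1.21, and the gene was 2.34-fold lower.

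CXCL2 also had a pair of probes, 1357 bases apart (chr4:74962985-74963044 and chr4:74964342-74964401, minus strand). The first read 1112 against 2875 and the second 401 against 680. Both were lower, by -1.37 and -0.76, and the gene was 2.09-fold lower, just past the threshold. The gap of 0.61 between them compares with a median gap of 0.48 over the 2514 genes with 2 probes. For CXCL3, the probe (chr4:74902702-74902761, minus strand) read 262 with the mimic and 169 with the control, 0.63 higher (1.54-fold). None of these values is recomputed, and each mimic value has the 1.2 pattern described above. Probe sequences were not used here, so whether the probes of these near-identical genes read one another's transcripts was not checked.

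The calls for CXCL1 and CXCL2 depend on the scaling. By the authors' deposited table CXCL1 differed by -0.64 and CXCL2 by -0.49, neither past 2-fold, while CXCL3 was 2.30-fold higher. The median of all table genes lay at 0.58 in the deposited values. On both scales CXCL1 and CXCL2 were lower and CXCL3 was higher. The promoters of all 3, printed above, carry the same motif at nearly the same place.

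The other chemokines, CCL2 and CCL20, differed in opposite directions. CCL2 attracts monocytes. Its probe (chr17:32584050-32584109, plus strand) read 143 with the mimic and 588 with the control over 10 spots, a difference of -2.04 (4.12-fold lower). One mimic spot read 6993, above every control spot (553 to 623), and the other 9 lay between 64.3 and 203, all below them. With the median over spots in place of the mean, CCL2 read 84.4 against 596, and was 7.06-fold lower. The SD of the difference over its spots was 2.01, against a median of 0.077 for the 999 probes that had 8 or more spots, 5 of which had an SD as large or larger, CCL2 included. Its mimic value in the authors' deposited table is recomputed, and the difference there was -2.19. CCL20 attracts dendritic cells and lymphocytes that carry CCR6. Its probe (chr2:228681777-228681836, plus strand) read 147 with the mimic and 101 with the control, 1.45-fold higher. The authors' deposited table gives 2.25-fold higher.

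**Figure D2:**
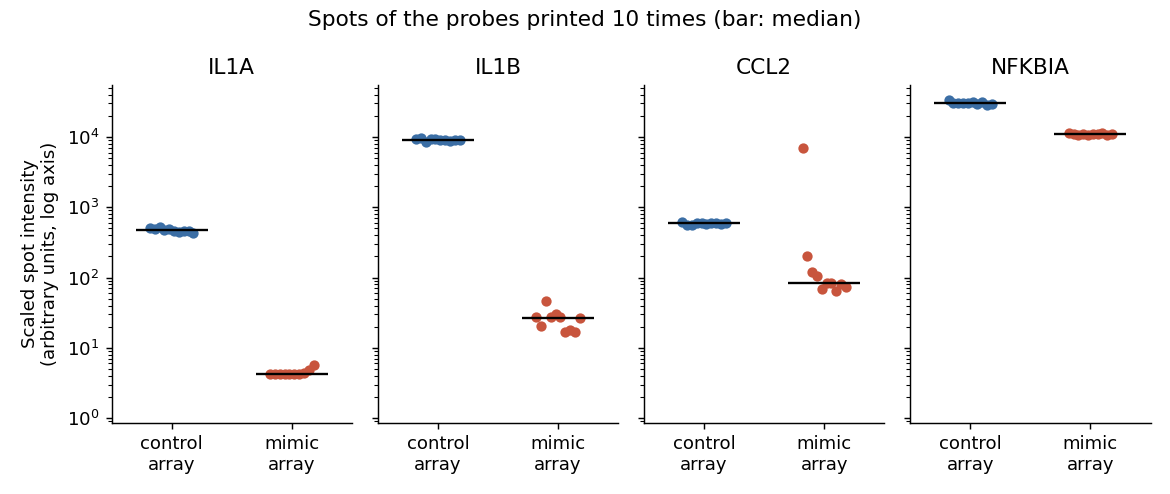
Scaled intensity (arbitrary units, log axis) of each spot of the 4 member probes printed at 10 spots, with a bar at the median. Control and mimic spots do not overlap for IL1A, IL1B and NFKBIA, while 1 CCL2 mimic spot at 6993 lies above every control spot.

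Both inhibitors were lower on the mimic array. NFKBIA encodes IkB-alpha, which holds NF-kB in the cytoplasm and is itself an NF-kB target. Its probe (chr14:35870788-35870847, minus strand) read 10960 with the mimic and 30485 with the control. The mimic spots lay between 10644 and 11338 and the control spots between 28367 and 33223, with no overlap. NFKBIA was 2.78-fold lower (-1.48). Its mimic value is not recomputed, and all 10 of its mimic spots have the 1.2 pattern described above. By the authors' deposited table the difference was -0.76, which is not past 2-fold. TNFAIP3 encodes A20, a ubiquitin-editing enzyme that ends NF-kB signalling. Its probe (chr6:138203679-138203738, plus strand) read 112 with the mimic and 1047 with the control. The difference was -3.22, or 9.34-fold lower, at rank 235 from the lowest. It rests on a recomputed value, for which the authors' deposited table gives -2.61.

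Of the 9 members in the table, 7 were at least 2-fold lower, against 14.3% of the table's genes, and 0 were at least 2-fold higher, against 14%. Members were chosen with earlier results of these data known, so these counts and shares are not an independent comparison. With IL1A the count was 8 of 10, against 16.7% of all named genes when those outside the table are included. The median difference was -1.48 over the 9 and -1.76 over the 10, and the median of all table genes was -0.05. The count was smaller in the deposited and in the raw values, where the arrays are not centred on one another. By the authors' deposited table, 4 of 9 were at least 2-fold lower (6.83% of table genes) and 2 were higher, CXCL3 and CCL20 (30.9%). In unscaled raw intensities 4 of the 9 were lower (6.95% of table genes) and 2 higher (30%), and with IL1A 5 of 10 were lower. The deposited values centred on the median gene gave 7 of 9 lower and 0 higher. Of the 14894 table genes, 2028 were lower and 2240 higher there. The members that passed 2-fold in every one of these scales were IL1B, CXCL8, CCL2 and TNFAIP3, the recomputed ones, and IL1A, for which the authors' table gives no value. Among the 5 table members without a recomputed probe, 3 were lower, against 7.62% of such genes. The call of these 3 depends on the scaling. Leaving out recomputed probes leaves out nearly every gene at least 2-fold lower by the deposited values. That these 3 do not pass in the uncentred deposited values, and that table members passing every scale are recomputed, was therefore nearly fixed beforehand. The 7.62% is limited in the same way.

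**Figure D3:**
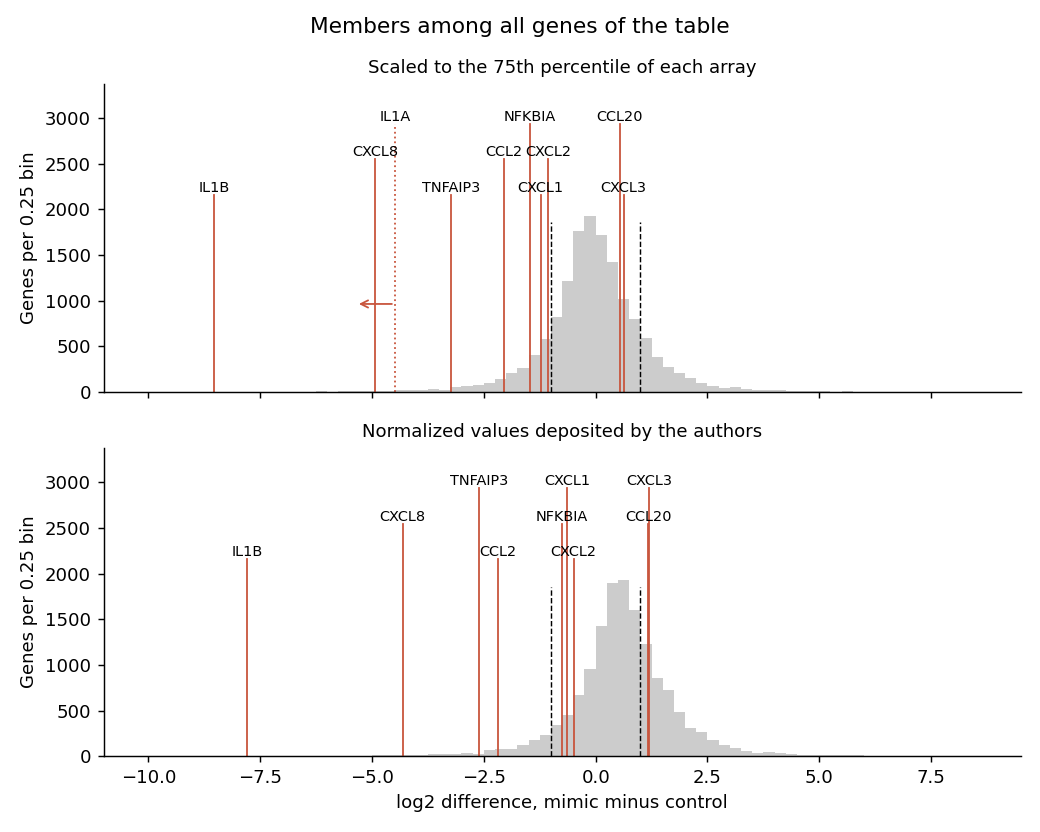
Number of table genes per 0.25 bin of log2 difference, mimic minus control, after scaling to the 75th percentile (top) and in the authors' deposited normalized values (bottom), with a line for each member and dashed lines at 2-fold. IL1A is dotted in the top panel at its bound of -4.48, with an arrow to the left, and is not in the deposited values. All genes together lie about 0.6 further right in the bottom panel (median 0.58 against -0.05), and NFKBIA, CXCL1 and CXCL2 are inside the dashed lines there.

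Within the interleukin-1 gene cluster of chromosome 2, IL1A and IL1B stood apart from their neighbours in size. IL37 (96.8 against 157, mimic first), IL36G (58.8 against 86.2), IL36A (56.1 against 54.9) and IL1F10 (54.4 against 49.2) were all within 2-fold. IL36B, an epidermal interleukin-36, read 24.9 against 62.2 and was 2.50-fold lower, and IL36RN was below the lowest table intensity on both arrays. At the far end, IL1RN, the natural antagonist of the interleukin-1 receptor, read 95.8 against 75.6, with probes that disagreed in sign (-0.31 and 1.00).

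In the CXC chemokine cluster of chromosome 4, the members lie among genes with other patterns. CXCL5, another CXCR2 ligand, read 404 with the mimic and 251 with the control (0.69). CXCL6, PF4V1 and PPBP were below the lowest table intensity on both arrays. PF4, a platelet chemokine, read 5.58 against 306, so it was at least 14.4-fold lower, a gene named after its value was seen. The cluster did not differ in 1 direction.

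**Figure D4:**
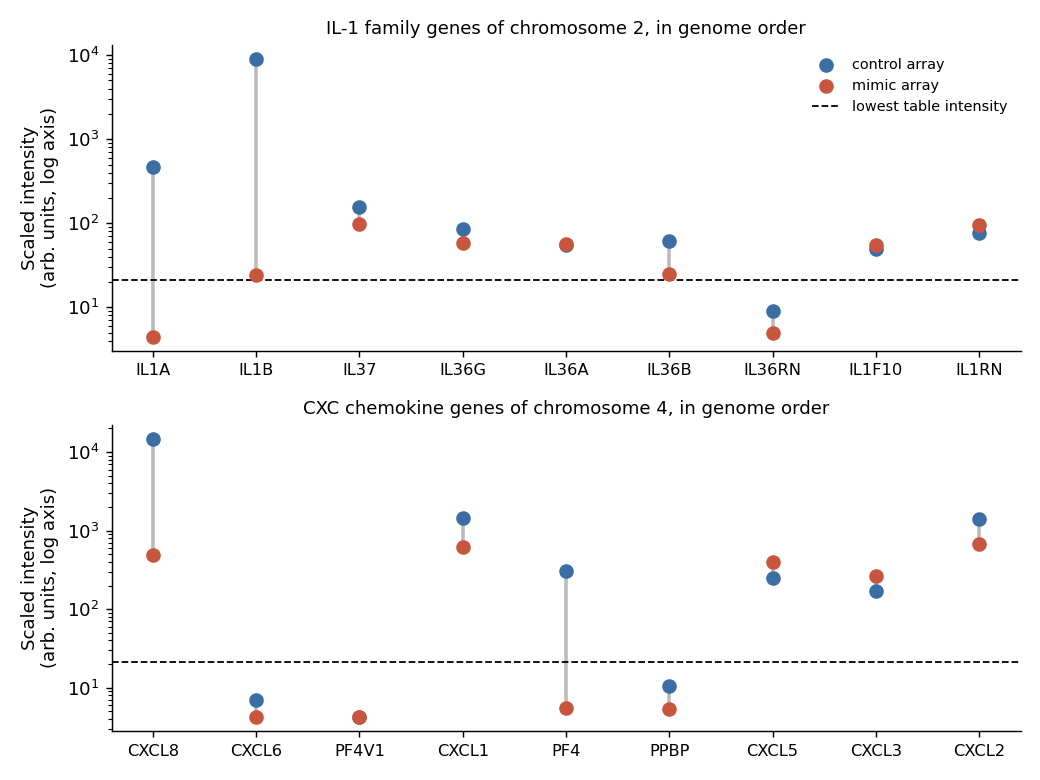
Scaled intensity (arbitrary units, log axis) of the interleukin-1 family genes of chromosome 2 and the CXC chemokine genes of chromosome 4, in genome order, with the geometric mean over probes where a gene has more than 1. Blue points are the control array, red points the mimic array, and the dashed line is the lowest mimic intensity of the table, 21.2. The long bars are those of IL1A, IL1B, CXCL8 and PF4, and CXCL5 and CXCL3 have the mimic point on top.

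The wider pathway was followed through 10 lists with 163 genes, of which 103 were in the table and are called detected. Of these, 26 (25.2%) were at least 2-fold lower and 8 (7.77%) higher, against 14.3% and 14% of all table genes, with a median of -0.21. The lists too were written with earlier results of these data known. Recomputed probes stood behind 15 of the 26, and the deposited values in the authors' table give 15 lower and 22 higher, where 6.83% and 30.9% of all table genes were. Of the 60 list genes outside the table, 30 were below its lowest intensity on both arrays, 20 were above it on the control array alone and 3 on the mimic array alone. The matching shares over all genes outside the table were not worked out. The split is thus not shown to be particular to the pathway. These counts take the mean over a gene's probes.

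Among the other interleukin-1 family ligands, 1 of 8 was lower (IL36B) and 1 higher, near the 14.3% and 14% of all table genes. Their median was 0.09. IL18, a cytokine that epithelia store and caspase-1 matures, was the higher one, 3503 against 893 (3.92-fold). It thus differed opposite to IL1A and IL1B. Of 5 detected processing genes, 2 were lower and 1 was higher, against the same shares of all table genes. The inflammatory caspases CASP4 (5246 against 17767) and CASP5 (1176 against 4337) were 3.39-fold and 3.69-fold lower, both recomputed, while CAPN1, a subunit of the calpain proteases that cut the IL1A precursor, was 5.50-fold higher. CASP1 itself, outside the table and named after its value was seen, read 4.46 against 254, at least 11.9-fold lower. GSDMD, which forms the pore that releases interleukin-1 beta, was also outside the table and named afterwards, and read 122 against 25.6, 4.77-fold higher.

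Of 13 detected receptor and proximal signalling genes, 3 were lower and 1 higher (median -0.17), against 14.3% and 14% of all table genes. IL1RAP, the co-receptor that every interleukin-1 signal needs, read 203 against 1104 (5.45-fold lower), and IRAK2, a kinase of the receptor complex, 931 against 3085 (3.31-fold lower). TOLLIP, an inhibitor of that complex, was 3.84-fold lower. These 3 are recomputed. SIGIRR, a decoy-like inhibitory receptor, was 3.30-fold higher (3667 against 1110). The signalling receptor IL1R1 read 129 against 101, and the decoy IL1R2 was below the lowest table intensity on both arrays.

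In the NF-kB machinery itself, 2 of 10 detected subunits and kinases were lower, near the 14.3% of all table genes, 0 were higher and the median was -0.27. RELA, the main activating subunit, read 908 against 780, NFKB1 2534 against 3389, and the kinase IKBKB 1348 against 1442, all within 2-fold. REL (143 against 322) and MAP3K14 (832 against 1745), the kinase of the non-canonical arm, were 2.25-fold and 2.10-fold lower without recomputed probes. Neither was past 2-fold in the deposited values, where 0 of the 10 were lower.

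The list of other NF-kB feedback inhibitors also holds adaptors and ubiquitin ligases of the pathway. Its genes past 2-fold were lower, as were NFKBIA and TNFAIP3. Of its 16 detected genes, 7 were lower and 0 higher (median -0.74), against 14.3% and 14% of all table genes. TRAF1, an adaptor that NF-kB induces, read 107 against 3107 (29.0-fold lower), and BIRC3, a ubiquitin ligase of the same pathway, 1112 against 7603 (6.84-fold lower), both recomputed. TNIP1, which works with A20, and the deubiquitinase CYLD were 2.74-fold and 2.41-fold lower without recomputed probes. NFKBIZ (248 against 197) and ZC3H12A (858 against 866), an RNase that destroys cytokine transcripts, were within 2-fold. By the deposited values 2 of the 16 were lower and 1 was higher, against 6.83% and 30.9% of all table genes.

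Of the 32 other chemokines 20 were outside the table, with 12 below its lowest intensity on both arrays. Of 12 detected ones, 2 were lower and 1 higher, near the 14.3% and 14% of all table genes. The lower ones were CCL3 (69.5 against 346, 4.98-fold) and CCL26 (98.5 against 337, 3.42-fold), both recomputed. CXCL16, a chemokine that is made as a membrane protein, read 1979 against 76.4 and was 25.9-fold higher, with differences of 3.67 and 5.71 at its probes. CXCL10 and CXCL11, interferon-induced T-cell attractants outside the table that were named after their values were seen, were at least 8.98-fold and at least 23.2-fold lower.

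Receptors for the members were dim. Of 6 detected chemokine receptors, 0 were lower and 1, ACKR1, a scavenger of chemokines, was 2.14-fold higher. Of all table genes, 14.3% were lower and 14% higher. CXCR1, a receptor for CXCL8, read 117 against 85.3, and CCR6, the receptor of CCL20, 144 against 239, both within 2-fold. CXCR2, outside the table, read 111 against 26.9, 4.14-fold higher. CCR2, the receptor of CCL2, was below the lowest table intensity on both arrays by the mean of its 2 probes (4.27 against 12.7). Its brighter probe was above that intensity on the control array.

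Other genes that NF-kB induces included the largest differences among the pathway genes in the table. Of 13 detected ones, 6 were lower and 0 higher (median -0.91), against 14.3% and 14% of all table genes. PTGS2, the inducible cyclooxygenase, read 105 against 9023 (85.6-fold lower), PTX3, a secreted pattern-recognition protein, 123 against 8704 (71.0-fold lower), and IL6 51.7 against 1830 (35.4-fold lower). All 3 are recomputed, and by the deposited values these 3 were the only lower ones (6.83% of all table genes). On that scale 2 of the 13 were higher (30.9%). LIF, a cytokine of the interleukin-6 family, was 2.89-fold lower without a recomputed probe. ICAM1, the adhesion molecule for leukocytes, read 163 against 306, within 2-fold, and TNF, outside the table, 36.2 against 40.7. CSF2 and MMP3, outside the table and named after their values were seen, were at least 170-fold and at least 28.3-fold lower. LCN2, likewise outside and named afterwards, read 3802 against 19.5 and was at least 181-fold higher.

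**Figure D5:**
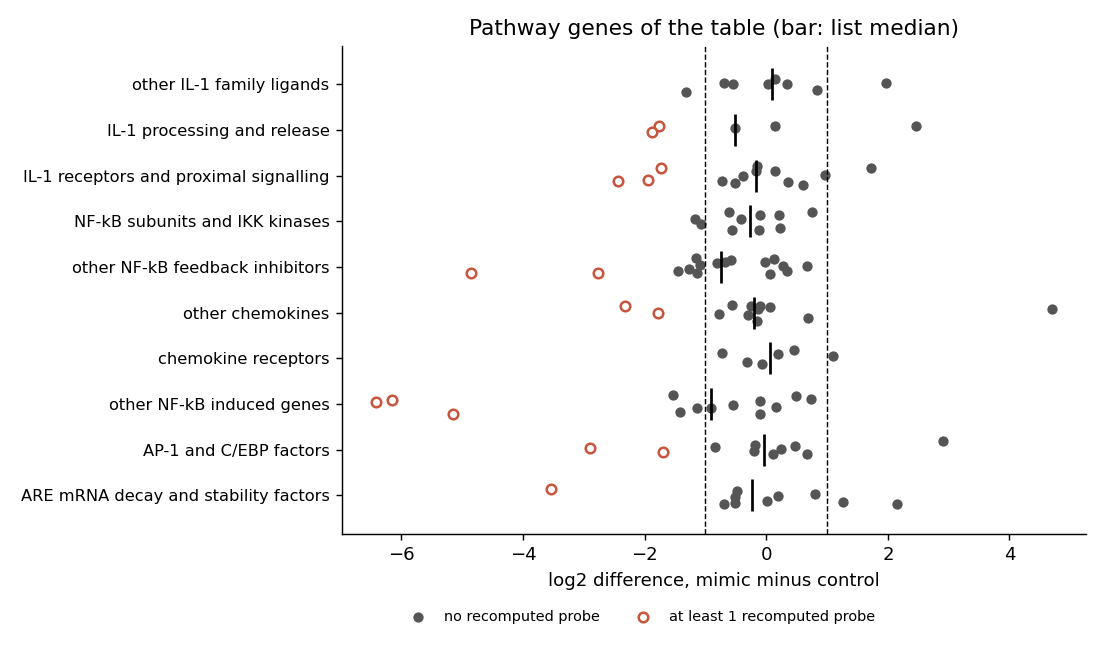
Log2 difference, mimic minus control, of the 103 pathway genes in the table, by list, with a bar at each list's median and dashed lines at 2-fold. Open red circles have at least 1 recomputed probe and include all values below -2, while feedback inhibitors and NF-kB induced genes have the medians furthest below 0, at -0.74 and -0.91.

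Other regulators of these transcripts were mixed. Of 10 detected AP-1 and C/EBP factors, 2 were lower and 1 higher (median -0.04), near the 14.3% and 14% of all table genes. JUN (3948 against 29483, 7.47-fold) and FOS (149 against 482, 3.25-fold), the classical AP-1 pair, were lower and recomputed, while JUND was 7.48-fold higher. Of 10 factors that act on AU-rich elements, the decay signals in many cytokine transcripts, 1 was lower and 2 were higher, near the same shares. ZFP36, the decay factor tristetraprolin, read 27139 against 6138 (4.42-fold higher) and TIAL1, a translational silencer, was 2.41-fold higher. ZFP36L2, a relative of ZFP36, was 11.7-fold lower and recomputed.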

How the data were processed

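RNA was labelled with Cy3 and hybridised to Agilent arrays, per the labels' protocols, and, per the submitters' processing notes, Agilent Feature Extraction 9.1 read the signals. The platform, genome build and normalization method are not given in the labels or files used here. As deposited, the scanner files hold 1 linear intensity per spot, with no flags. The authors' deposited table holds raw intensity, log2 normalized intensity and a fold (ratio of mimic to control) for 20291 probes detected in 5 of 5 samples, per the file headers, of which 3 samples are not analysed here. The deposited series values equal its log2 values within 0.005 (medians 9.81 mimic, 9.21 control), so they are log2, uncentred and in the labels' direction.

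Spots were averaged per probe as log2, less the array's 75th percentile over 34127 non-control probes. Adding the mean log2 percentile back gave the printed intensities. Genes took the mean of their table probes, while marker sums took the mean of all probes of a gene. Probes were named by Entrez identifier (17578), accession (23) or file symbol (695) through RefSeq on GRCh38.p14, and 1995 stayed unnamed. For genes at or below the lowest table intensity (recomputed probes aside) on 1 array, the fold was taken against that intensity and is a bound. Alternatives (limma 3.58.1 in R 4.3.3; pandas 2.3.3 in Python 3.11.15) were quantile, cyclic loess and median scaling, the deposited and the raw values, normexp, an added constant, other detection filters, probe rules and thresholds. Scaling was run on simulated data with few changed probes, as many higher as lower, and a uniform shift between arrays. That setting is unlike these arrays, so it does not show how scaling performs on them. Members and lists were chosen with earlier results of these data known. Genes named were all members, up to 4 genes per list at least 2-fold different, largest first, and a fixed set of ligands, receptors and regulators.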

Additional observations from a re-analysis of the deposited data

Results flagged for a closer look

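Outside the authors' deposited table, 3 genes of the pathway and marker lists read over 10 times higher on the mimic array and were not above the lowest table intensity on the control array, in probes that the comparisons of detected genes do not use. CXCR4, the receptor of CXCL12, read 157 with the mimic and 10.7 with the control. LCN2, an iron-sequestering protein that NF-kB induces, read 3802 against 19.5. CDX2, the intestinal transcription factor, read 1255 against 5.14. ACKR4, a scavenger of chemokines, was also above that intensity on the mimic array alone, by less (25.1 against 14.8). These differences have no replicates and were not tested.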

How the results depend on the processing

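No paired analysis was possible because each group has 1 array, which also leaves no replicate to leave out. Every member kept its direction under each alternative that gave it a value, while the balance of lower and higher genes in the lists and over all genes did not keep its side. Quantile, loess and median scaling and the brightest probe per gene kept every count within 1.5 times of its value here and the members' median between -1.76 and -1.72, with 2028 lower and 2148 higher of all genes after quantile, 2044 and 2111 after loess and 2033 and 2188 after median scaling, against 2128 and 2080 here. The deposited values gave 4 members lower and 2 higher, a median of -0.76 (-1.34 when centred on the median gene), 15 list genes lower and 22 higher, and 1017 and 4606 of all genes, so that 81.9% of the calls were higher against 49.4% here. Raw intensities gave 5 members lower and 2 higher, a median of -1.15, 15 and 20 list genes, and 1035 and 4475 of all genes. The scaling shift between these is 0.61 log2. After centring, the deposited values gave 7 of 9 members lower and 0 higher, with 26 list genes lower and 8 higher. The median was -1.65 with a constant of 32 added, -1.58 after normexp with an offset of 50, and -2.15 with the median over spots, which was chosen after seeing the data and acts through CCL2. Without the detection filter, 51 of 163 list genes were lower and 13 higher, and 3469 of 20802 genes (16.7%) were lower and 14.1% higher. In the brighter part of the genes 4 of 4 members were lower (median -1.35), with 14 and 4 list genes and 1054 and 942 of all genes. Without recomputed probes 4 of 6 members were lower (median -1.15), and 12 list genes were lower and 8 higher. Of all genes, 1063 were lower and 2087 higher. This choice removes nearly every gene at least 2-fold lower by the deposited values, so fewer lower genes are left by construction. At 1.5-fold 1 member was higher, 17 list genes were higher, and 3683 of all genes were lower and 3505 higher. At 4-fold 5 members were lower, 9 list genes were lower and 4 higher, and 677 and 616 of all genes. NFKBIA spanned -1.48 to -0.76 over the alternatives, CXCL1 -1.26 to -0.62 and CXCL2 -1.37 to -0.46, so these 3 passed 2-fold in some and not in others. IL1A spanned -6.77 to -3.67, with the values nearest 0 from the added constant and from normexp. Both lift a mimic signal at the level of the negative controls. IL1B, whose mimic signal is also dim, spanned -8.61 to -7.19.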
